A study of Homo sapiens with 12 samples.

Results

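A set of 10 replication-dependent histone H4 genes of the HIST1 cluster on human chromosome 6 was examined for binding of CASP8AP2, NPAT, HINFP and E2F1: HIST1H4A, HIST1H4B, HIST1H4C, HIST1H4D, HIST1H4E, HIST1H4F, HIST1H4H, HIST1H4I, HIST1H4J and HIST1H4K. They are 10 of 20056 protein-coding genes in the RefSeq table. They were chosen by their position in NCBI36, and a region of a ChIP-Seq list was assigned to a gene when its summit lay within 1 kb of that position. This gave 82 regions out of 1636159 in the 8 lists. In NCBI36 they run from 26129886 (HIST1H4A) to 27907284 (HIST1H4K), with HIST1H4B, HIST1H4D, HIST1H4H and HIST1H4K on the minus strand and the others on the plus strand. ChIP-Seq sequences the DNA that an antibody pulls down from formaldehyde-crosslinked chromatin, and a region bound by the factor yields more sequences than a pull-down with unspecific IgG does. The 4 factors were precipitated from 2 human cell lines with 5 µg of antibody each. U2OS cells come from an osteosarcoma. The hTERT-RPE1 line was made from normal cells of the retinal pigment epithelium by adding telomerase (hTERT). HINFP was set against goat IgG of the same line, and the other 3 factors were set against 1 rabbit IgG library per line. There was 1 library per factor and cell line, so that the intervals given here cover counting error only and differences between the lines are differences between single libraries.

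H4 is a core histone of the nucleosome. Its replication-dependent genes are expressed in S phase, when new DNA has to be packed, and their mRNAs end in a stem-loop instead of a poly(A) tail. NPAT is a cyclin E/CDK2 substrate that sits at the histone locus body, the nuclear site of histone gene transcription, and activates these genes. CASP8AP2 (FLASH) is another component of the histone locus body and also takes part in the 3′ end processing of histone pre-mRNA. HINFP is a zinc finger protein that binds an element with the core GGTCCG in H4 promoters and interacts with NPAT. E2F1 is a transcription factor of the RB pathway that activates genes at the entry to S phase.

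The element of HINFP is shown first, because the position of each factor is read against it. RefSeq promoters (GRCh38.p14, from 250 bases before the transcription start to 50 bases after it) were matched for 8 of the 10 genes. HIST1H4A and HIST1H4C had no matched promoter, so the searches below do not cover them. The bases from 34 before GGTCCG to the last base before the start are printed 5′ to 3′ along the gene, with GGTCCG and the TATAA that follows it in capitals.
HIST1H4B (H4C2, chr6:26027284-26027363, minus strand): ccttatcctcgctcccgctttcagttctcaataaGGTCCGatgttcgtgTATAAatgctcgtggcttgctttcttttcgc
HIST1H4D (H4C4, chr6:26189113-26189190, minus strand): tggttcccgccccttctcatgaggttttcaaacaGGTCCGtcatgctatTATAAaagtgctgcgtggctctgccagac
HIST1H4E (H4C5, chr6:26204530-26204609, plus strand): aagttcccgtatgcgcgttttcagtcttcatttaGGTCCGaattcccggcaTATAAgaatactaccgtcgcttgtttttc
HIST1H4F (H4C6, chr6:26240313-26240392, plus strand): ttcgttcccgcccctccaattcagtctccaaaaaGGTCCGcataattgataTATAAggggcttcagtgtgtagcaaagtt
HIST1H4H (H4C8, chr6:26285535-26285614, minus strand): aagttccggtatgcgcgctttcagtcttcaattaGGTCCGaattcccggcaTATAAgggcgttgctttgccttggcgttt
HIST1H4I (H4C9, chr6:27139202-27139281, plus strand): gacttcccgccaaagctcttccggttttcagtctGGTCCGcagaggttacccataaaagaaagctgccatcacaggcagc
HIST1H4J (H4C11, chr6:27824011-27824091, plus strand): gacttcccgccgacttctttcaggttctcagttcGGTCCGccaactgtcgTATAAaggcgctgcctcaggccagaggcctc
HIST1H4K (H4C12, chr6:27831561-27831641, minus strand): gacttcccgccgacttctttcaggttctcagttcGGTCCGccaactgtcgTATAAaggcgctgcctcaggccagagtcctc

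GGTCCG stood once on the gene's strand in 8 of these 8 promoters, with its first base between 47 and 44 bases before the start. Searched on both strands, it was held by 11.2% of the 27305 promoters of the RefSeq table. It also stood on the gene's strand in 4 of the 5 other H4 promoters. TATAA, the core of the TATA box, followed it in 7 of the 8 genes and began 31 to 29 bases before the start. In HIST1H4I it was found only farther upstream, and 21.1% of all promoters held it on either strand. GTCCGC, which overlaps GGTCCG, was found in 5 promoters (12.7% of all promoters) and CGTCCG in 0 (9.33%). CCAAT was found in HIST1H4F and HIST1H4I only, against 35.7% of all promoters. The exact E2F-type letters TTTCGCGC, TTTGGCGC and TTTCCCGC were found in 0 of the 8, and 0.546%, 0.659% and 1.66% of all promoters held them. This search does not show that other E2F-type letters are absent. Nor did it cover HIST1H4A, the only gene with an enriched E2F1 region below, or HIST1H4C. After the promoters had been seen, TTCCCGCC, which shares TTCCCGC with the E2F-type TTTCCCGC, was also searched. It was held by 6 of the 8 (HIST1H4D, HIST1H4E, HIST1H4F, HIST1H4I, HIST1H4J and HIST1H4K) and by 3.18% of all promoters. TGACGTCA, the full palindrome bound by CREB and ATF factors, searched in the same way, was held by HIST1H4E and HIST1H4H and by 1.98% of all promoters.

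The promoters differed widely outside these letters. The median identity over the 28 pairs of 300-base promoters was 53.2%, and the lowest was 47.7%. HIST1H4J and HIST1H4K stood apart, with 295 of 300 bases identical (98.3%), and the next pair, HIST1H4E and HIST1H4H, reached 70.2%. Values at HIST1H4J and HIST1H4K are therefore uncertain, since sequences from copies this similar can be split between them or left out when reads are mapped. How the mapping treated such sequences is not given in the sources used here.

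The 10 positions of NCBI36 are spaced as the start codons of the genes are in GRCh38.p14. For the 8 genes that could be compared the deviation was 0 bp, and the RefSeq transcription start lay 27 to 36 bases upstream of the start codon. Distances below are therefore given from the start codon along the direction of transcription, with negative values upstream. No coordinate was moved between the builds.

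A region was called enriched when its deposited p-value was under 0.00001 and its deposited fold change over IgG was above 2. Where a gene had several regions in a library (17 of 80 combinations of gene and library), the region with the most ChIP sequences was used. Of the 80 combinations 64 had a region, 39 had an enriched region and 16 had no listed region with a summit within 1 kb. The lists hold regions with at least 8 sequences at the summit, so that a gene without a region has no count here. The raw ratio is the number of ChIP sequences plus 1 over the number of IgG sequences plus 1. The exact 95% interval beside it comes from the share of ChIP sequences among both counts without the added 1 (Clopper-Pearson). It thus belongs to the ratio without the added 1, which was 23 in place of 19.3 for HINFP at HIST1H4D in hTERT-RPE1 cells. The depth of a ChIP library over that of its IgG library lay between 0.858 and 1.23, and the median raw ratio over all listed regions of a library lay between 1.83 and 2.5. The total reads per library are unknown. The deposited p-values are not adjusted for the number of regions.

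HINFP was enriched at 7 of the 10 genes in each line, and at 6 of them in both. Over all listed regions of these libraries, 0.393% were enriched in hTERT-RPE1 and 0.5% in U2OS cells. The genes enriched in both lines were HIST1H4B, HIST1H4C, HIST1H4D, HIST1H4E, HIST1H4H and HIST1H4J. HIST1H4K was enriched in hTERT-RPE1 cells, with 23 ChIP and 1 IgG sequences, and missed the p-value limit in U2OS cells, with 25 and 5 sequences (p-value 1.72e-05). HIST1H4I was enriched in U2OS cells and had no listed region in hTERT-RPE1 cells. HIST1H4F had no HINFP region in either line, although its promoter holds the element printed above. Without the near-identical HIST1H4J and HIST1H4K, HINFP was enriched at 5 of 8 genes in hTERT-RPE1 cells and at 6 of 8 in U2OS cells.

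The highest HINFP ratio in hTERT-RPE1 cells was at HIST1H4D (chr6:26297114-26297599, NCBI36), with 115 ChIP and 5 IgG sequences (raw ratio 19.3, interval 9.58 to 72.2). Of all HINFP regions in this library 0.0435% had a ratio at least as high. HIST1H4C had the most HINFP sequences, 151 against 14 IgG sequences (raw ratio 10.1, interval 6.23 to 20.2), and its p-value of 1.01e-30 ranked 6 in the library. In U2OS cells HIST1H4C had 37 and 5 sequences (raw ratio 6.33, interval 2.90 to 24.1). The highest ratio in U2OS cells was at HIST1H4B, with 64 ChIP and 4 IgG sequences (raw ratio 13.0, interval 5.95 to 60.5). HIST1H4I followed with 85 and 6 sequences (raw ratio 12.3, interval 6.25 to 39.7). HIST1H4E was the lowest enriched gene in both lines, with 59 and 14 sequences in hTERT-RPE1 cells (raw ratio 4) and 71 and 16 in U2OS cells (raw ratio 4.24). In hTERT-RPE1 cells the interval at HIST1H4E (2.32 to 8.17) lay below that at HIST1H4D, while in U2OS cells the intervals of all 7 enriched genes overlapped. The goat IgG libraries held only 1 to 16 sequences in these regions.

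Most summits of HINFP lay close to its element. In hTERT-RPE1 cells the 7 summits were 47 to 99 bp upstream of the start codon (median 75 bp), and in U2OS cells the 7 enriched ones were 31 to 95 bp from it, all upstream. The middle of GGTCCG lies 70.5 to 78.5 bases upstream of the start codon in the 8 promoters that could be read. From the middle of GGTCCG, the HINFP summit was at a median of 11 bp in hTERT-RPE1 cells (range 0.5 to 30.5 bp, 6 genes). In U2OS cells it was at a median of 9.5 bp among the 6 enriched genes (range 7.5 to 16.5 bp). HIST1H4K in U2OS cells, which was not enriched, lay 87.5 bp away. For the enriched NPAT summits the same distance had a median of 69.5 bp in hTERT-RPE1 cells (39.5 to 581.5 bp, 5 genes). In U2OS cells the NPAT median was 67 bp (11.5 to 274.5 bp, 6 genes). For the enriched CASP8AP2 summits it was 149 bp in hTERT-RPE1 cells (115.5 and 182.5 bp, 2 genes only). In U2OS cells the CASP8AP2 median was 131.5 bp (52.5 to 559.5 bp, 5 genes). At the closest gene, HIST1H4B in hTERT-RPE1 cells, the HINFP summit lay 75 bp upstream of the start codon and 0.5 bp from the middle of the element. The enriched HINFP regions were short, with medians of 486 and 528 bp. These summit positions come from 1 library per line and have no replicate check.

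**Figure D1:**
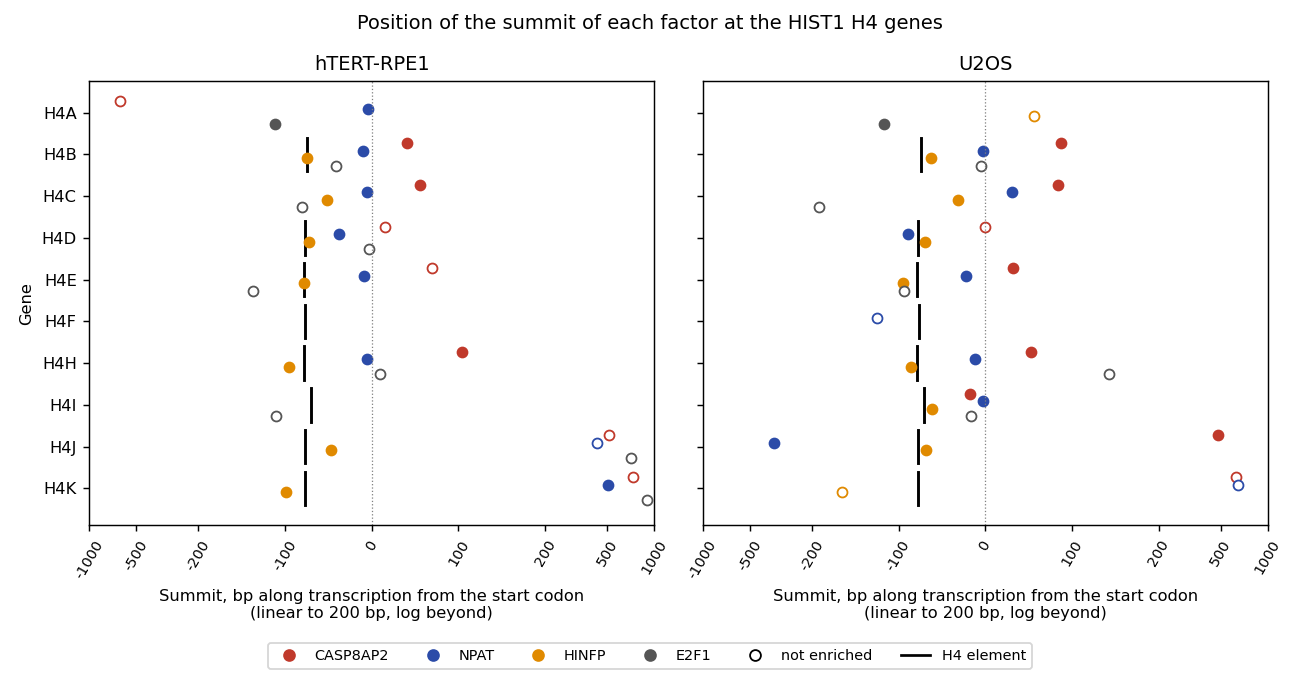
Position of the summit of each factor (colour) at each H4 gene, in bp along transcription from the start codon, for the region with the most ChIP sequences in each library. The axis is linear to 200 bp and logarithmic beyond, filled points are enriched and open points are listed but not enriched, and black bars mark the middle of GGTCCG (the H4 element) in the 8 genes with a RefSeq promoter. Most HINFP points sit near the bars, most NPAT points near the start codon and most CASP8AP2 points downstream of it, while NPAT and CASP8AP2 lie more than 300 bp away at HIST1H4J and HIST1H4K.

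Where NPAT had a region at an H4 gene, it had more ChIP sequences than each of the other factors, except at HIST1H4A in hTERT-RPE1 cells (58, against 78 for E2F1). These are raw counts over regions of unlike length, from libraries of unknown total reads, and do not rank the factors by strength of binding. NPAT was enriched at 7 of the 10 genes in each line, against 0.259% of all listed regions in hTERT-RPE1 and 0.108% in U2OS cells. The 5 genes enriched in both lines were HIST1H4B, HIST1H4C, HIST1H4D, HIST1H4E and HIST1H4H. HIST1H4A and HIST1H4K were enriched in hTERT-RPE1 cells, and HIST1H4I and HIST1H4J in U2OS cells. HIST1H4A is not counted in U2OS cells, although a broad enriched NPAT region with its summit farther than 1 kb away covered its start codon (351 and 51 sequences). The median raw ratio of the listed genes was 8.17 in hTERT-RPE1 and 10.3 in U2OS cells, against 2.4 and 2.25 over all regions. The ranks by p-value of the enriched H4 genes ran from 2 to 183 among 299405 regions in hTERT-RPE1 cells and from 2 to 69 among 478015 in U2OS cells.

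At HIST1H4C in hTERT-RPE1 cells NPAT reached its highest raw ratio, 18.7 (interval 12.6 to 31.9), from 410 ChIP and 21 IgG sequences. HIST1H4C was also the highest of the enriched genes in U2OS cells, with 140 and 9 sequences (raw ratio 14.1, interval 7.96 to 34.7). The most NPAT sequences in a region were found at HIST1H4B in U2OS cells, 605 against 53 IgG sequences (raw ratio 11.2, interval 8.61 to 15.4). In hTERT-RPE1 cells HIST1H4B had 444 and 37 sequences (raw ratio 11.7, interval 8.57 to 17.3), and the intervals overlapped. HIST1H4E had 476 and 55 sequences in hTERT-RPE1 cells (raw ratio 8.52) and 395 and 31 in U2OS cells (raw ratio 12.4). HIST1H4H had 241 and 26 sequences (raw ratio 8.96) and 452 and 51 (raw ratio 8.71), respectively. HIST1H4D was lower in U2OS cells, with 80 and 14 sequences (raw ratio 5.40, interval 3.22 to 10.9), than in hTERT-RPE1 cells, with 218 and 27 (raw ratio 7.82, interval 5.40 to 12.5), and the intervals overlapped. The lowest value of an enriched gene was at HIST1H4K in hTERT-RPE1 cells, with 51 and 11 sequences (raw ratio 4.33, interval 2.39 to 9.87).

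Most NPAT summits lay close to the start codon, with HIST1H4J and HIST1H4K as exceptions in both lines. The enriched summits were at a median distance of 9 bp in hTERT-RPE1 cells and 22 bp in U2OS cells. At HIST1H4A, HIST1H4B, HIST1H4C, HIST1H4E and HIST1H4H in hTERT-RPE1 cells the summit lay 4 to 10 bp upstream of the start codon. Where both factors had a region, the median distance between the HINFP and NPAT summits was 69 bp in hTERT-RPE1 cells, with HINFP upstream in 7 of 7 genes. In U2OS cells the median was 67.5 bp, with HINFP upstream in 6 of 8 genes. The exceptions in U2OS cells were HIST1H4D, where the NPAT summit lay 89 bp and the HINFP summit 69 bp upstream of the start codon, and HIST1H4J. At HIST1H4J the NPAT region used had 71 sequences and its summit 352 bp upstream. Another enriched NPAT region there had 70 sequences and its summit 530 bp downstream, so that the order depends on the choice of region. NPAT regions were broad, with median lengths of 1625 and 1440 bp where enriched. Over all regions of the 8 lists the median length was 282 to 331 bp.

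CASP8AP2 was found at fewer H4 genes than NPAT and at lower ratios. It was enriched at 3 of the 10 genes in hTERT-RPE1 (HIST1H4B, HIST1H4C and HIST1H4H) and at 6 in U2OS cells (the same 3 with HIST1H4E, HIST1H4I and HIST1H4J). The shares over all listed regions were 0.112% and 0.0927%. In hTERT-RPE1 cells HIST1H4C was highest, with 132 ChIP and 21 IgG sequences (raw ratio 6.05, interval 3.95 to 10.5). HIST1H4B had 123 and 25 sequences (raw ratio 4.77) and HIST1H4H had 66 and 16 (raw ratio 3.94). HIST1H4E had 67 ChIP and 26 IgG sequences there and missed the p-value limit (5.01e-05). HIST1H4D was not enriched in either line, with 31 and 16 sequences in hTERT-RPE1 cells and 32 and 9 in U2OS cells.

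In U2OS cells the highest CASP8AP2 ratios were at HIST1H4C (69 and 8 sequences, raw ratio 7.78, interval 4.14 to 20.8) and HIST1H4H (169 and 21 sequences, raw ratio 7.73, interval 5.10 to 13.3). HIST1H4B had the most CASP8AP2 sequences, 263 against 44 IgG sequences (raw ratio 5.87, interval 4.33 to 8.42). HIST1H4E had 213 and 32 sequences (raw ratio 6.48, interval 4.58 to 9.98). HIST1H4I, with 88 and 20 sequences (raw ratio 4.24, interval 2.68 to 7.55), was the lowest of the enriched genes. All enriched CASP8AP2 genes were enriched for NPAT in the same line.

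In each line 8 genes had a region of both factors, with HIST1H4A only in hTERT-RPE1 and HIST1H4I only in U2OS cells. At each of them the fold change of NPAT was above that of CASP8AP2. The ratio of the 2 fold changes had a median of 2.97 in hTERT-RPE1 (1.67 to 4.20) and of 1.6 in U2OS cells (1.00 to 1.95). It was lowest at HIST1H4H in U2OS cells, where the fold changes were 7.10 and 7.07. At HIST1H4A in hTERT-RPE1 and HIST1H4J in U2OS cells the 2 summits used lay 634 and 834 bp apart. The CASP8AP2 region over the start codon of HIST1H4A had a fold change of 3.52, against 5.48 for NPAT. The NPAT region downstream at HIST1H4J had 7.24, against 5.26 for CASP8AP2. The ratios at both genes, and the lower end in hTERT-RPE1 cells, thus depend on the choice of region. The 2 factors share the rabbit IgG library of each line, and the antibodies differ, so that the ratio does not give relative amounts of the proteins on DNA. CASP8AP2 summits lay downstream of the HINFP summit in 7 of 7 genes in hTERT-RPE1 cells and in 8 of 8 in U2OS cells, at medians of 147 and 133 bp. The distance to the NPAT summit had medians of 83.5 and 59.5 bp, and CASP8AP2 was downstream in all but 1 of 8 genes in hTERT-RPE1 cells and all but 2 of 8 in U2OS cells. The exception in hTERT-RPE1 cells was HIST1H4A, where the CASP8AP2 summit used lay 638 bp upstream and a smaller region had its summit 92 bp downstream. These counts and medians use the region with the most ChIP sequences and include regions that were not enriched. At HIST1H4B, HIST1H4C and HIST1H4H the enriched CASP8AP2 summit was 41, 56 and 104 bp downstream of the start codon in hTERT-RPE1 cells and 87, 84 and 53 bp downstream in U2OS cells. At these 3 genes the summits stood in the order HINFP, NPAT and CASP8AP2 along transcription in both lines.

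**Figure D2:**
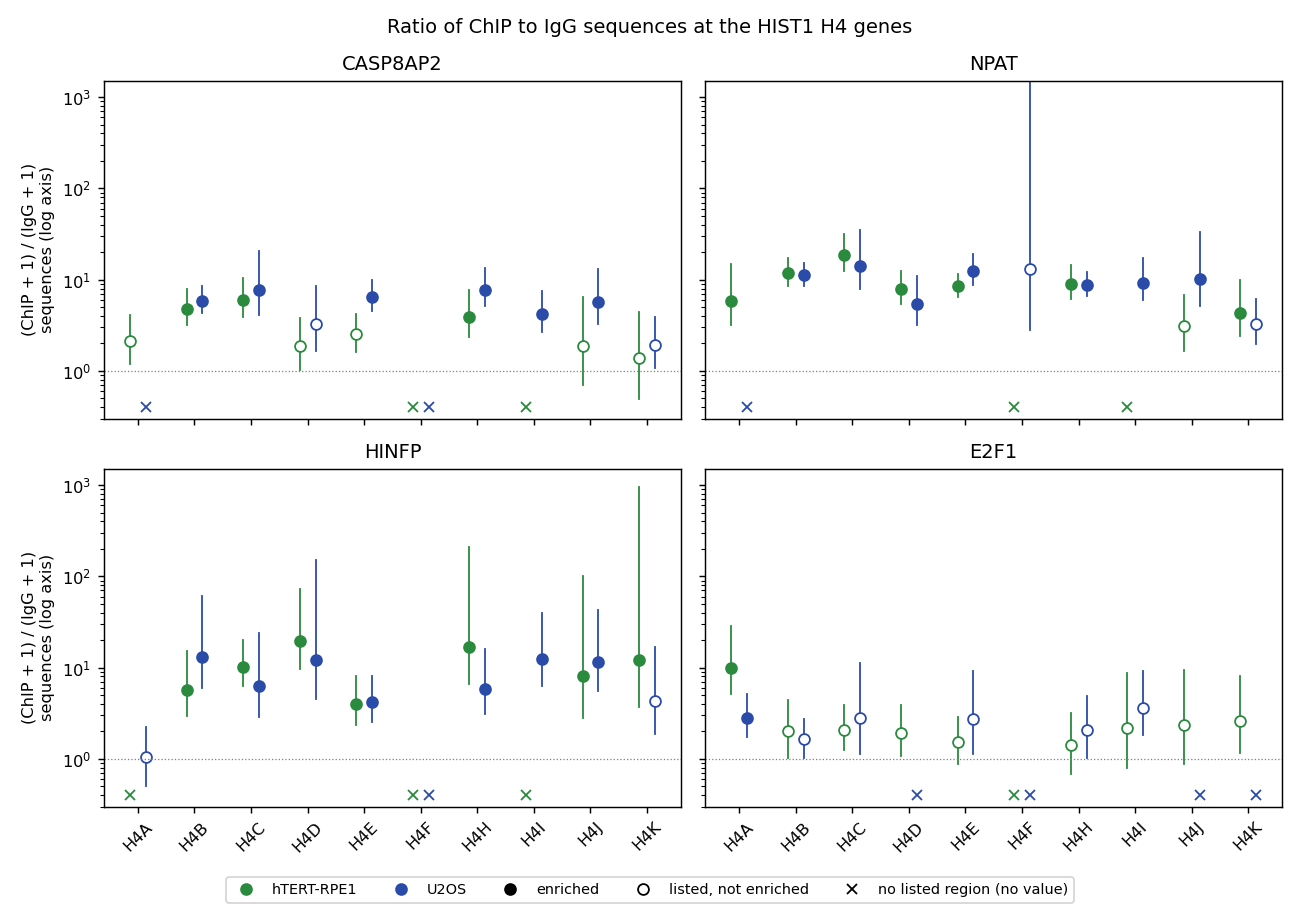
Raw ratio of ChIP to IgG sequences (logarithmic axis) at each H4 gene for the 4 factors, with hTERT-RPE1 cells in green and U2OS cells in blue. Bars are exact 95% intervals for counting error, from the counts without the added 1. The bar of NPAT at HIST1H4F in U2OS cells has no upper end. Filled points are enriched, open points are listed but not enriched, and crosses mark genes without a listed region. E2F1 has 1 filled gene, HIST1H4A, and HIST1H4F has a single point in all 4 panels.

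E2F1 was enriched at a single H4 gene, HIST1H4A, in both lines. The share over all listed regions was 0.707% in hTERT-RPE1 and 0.748% in U2OS cells. At HIST1H4A (chr6:26129499-26130282, NCBI36, in hTERT-RPE1 cells) E2F1 had 78 ChIP and 7 IgG sequences (raw ratio 9.88, interval 5.16 to 28.6), and 58 and 20 sequences in U2OS cells (raw ratio 2.81, interval 1.72 to 5.09). The summits lay 112 and 117 bp upstream of the start codon. The other listed genes had between 12 and 48 E2F1 sequences and raw ratios of 1.43 to 3.6. The highest of them was HIST1H4I in U2OS cells, with 35 and 9 sequences and a p-value of 1.41e-05. The median raw ratio of the listed genes, 2.10 in hTERT-RPE1 and 2.76 in U2OS cells, was set beside 2.2 and 1.83 over all listed regions.

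HIST1H4A was the only one of the 10 genes with an enriched E2F1 region, and like HIST1H4F it had no enriched HINFP region. The HIST1H4A promoter was not among those that could be read, so whether it holds GGTCCG is unknown here. HINFP had no listed region there in hTERT-RPE1 cells and 17 ChIP against 16 IgG sequences in U2OS cells. NPAT was enriched in hTERT-RPE1 cells, with 58 and 9 sequences and its summit 4 bp upstream of the start codon. CASP8AP2 had 37 and 17 sequences in hTERT-RPE1 cells with the summit 638 bp upstream, and a smaller region over the start codon with 22 and 5 sequences, of which neither was enriched. In U2OS cells neither NPAT nor CASP8AP2 had a summit within 1 kb. A broad region of each nevertheless covered the gene start, with its summit 1177 bp upstream for NPAT (chr6:26128407-26130903, NCBI36, 351 and 51 sequences) and 1104 bp upstream for CASP8AP2 (chr6:26128486-26130817, 229 and 51 sequences). These regions reach toward the neighbouring H3 gene (H3C1 in RefSeq), and sequences of the 2 genes cannot be told apart within them.

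HIST1H4F had a region in the fewest libraries, followed by HIST1H4A and HIST1H4I with 5 each. HIST1H4F had 1 listed region in 8 libraries, for NPAT in U2OS cells, with 12 ChIP and 0 IgG sequences and a p-value of 0.00043, which was not enriched. Its lower bound was 2.78 for the ratio of ChIP to IgG sequences, and the upper bound is open. HIST1H4I was enriched for NPAT, HINFP and CASP8AP2 in U2OS cells. In hTERT-RPE1 cells it had 1 listed region, for E2F1, with 12 and 5 sequences. Since the lists start at 8 sequences at the summit, the other 3 factors at HIST1H4I have no count in hTERT-RPE1 cells, and the difference between the lines could not be given an interval. HIST1H4B, HIST1H4C and HIST1H4H had the most enriched libraries, 6 of 8 each, followed by HIST1H4E with 5, and HIST1H4D and HIST1H4J with 4. HIST1H4A and HIST1H4I had 3, HIST1H4K had 2 and HIST1H4F had 0.

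At the near-identical HIST1H4J and HIST1H4K no listed region of NPAT or CASP8AP2 covered the start codon in either line, whereas the HINFP regions did in both. NPAT had a region upstream and one downstream of the start codon at both genes and in both lines, and CASP8AP2 had both at HIST1H4J in U2OS cells and a downstream region only in the other cases. At HIST1H4J in U2OS cells the upstream regions of NPAT (chr6:27899005-27899862, NCBI36) and CASP8AP2 (chr6:27899220-27899841) reached over GGTCCG and ended upstream of the start codon. At HIST1H4J in U2OS cells NPAT had an enriched region on each side, with 71 ChIP and 6 IgG sequences around a summit 352 bp upstream and 70 and 7 sequences around one 530 bp downstream. In hTERT-RPE1 cells the corresponding NPAT regions had 24 and 3 sequences (summit 337 bp upstream) and 39 and 12 sequences (428 bp downstream), and neither was enriched. CASP8AP2 in U2OS cells had 23 and 5 sequences 454 bp upstream of HIST1H4J and 68 and 11 sequences 482 bp downstream, of which the second was enriched. At HIST1H4K NPAT had 51 and 11 sequences 504 bp downstream in hTERT-RPE1 cells, which was enriched, and 61 and 18 sequences 643 bp downstream in U2OS cells, which was not. The part of the near-identical sequence in these positions was not tested. HINFP had 23 and 2 sequences at HIST1H4J in hTERT-RPE1 cells and 68 and 5 in U2OS cells.

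**Figure D3:**
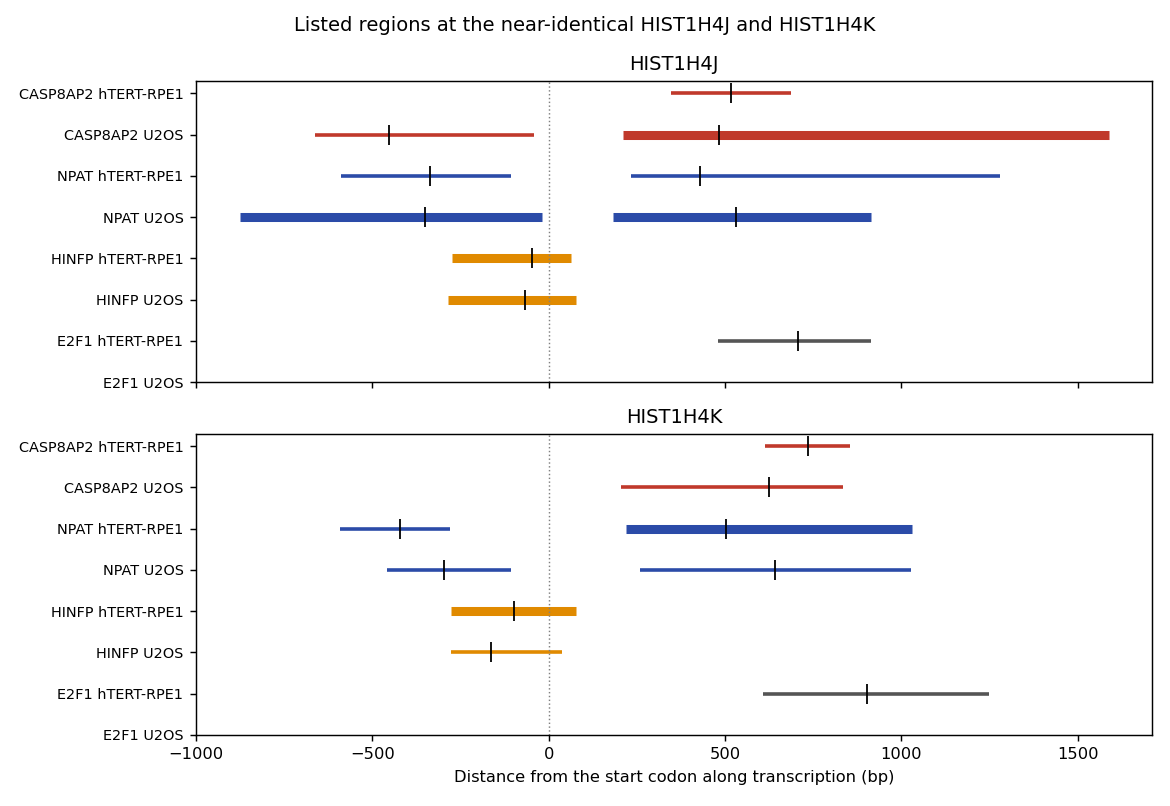
Extent of every listed region with a summit within 1 kb of the start codon of HIST1H4J and HIST1H4K, in bp along transcription. Thick bars are enriched, thin bars are not, black ticks are summits and the dotted line is the start codon. HINFP regions cross the line, and no NPAT or CASP8AP2 region does.

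The 2 lines were compared at each gene with a region in both, 27 combinations of factor and gene, by the odds ratio of ChIP and IgG sequences scaled by the depths, with its exact conditional 95% interval. For CASP8AP2 the fold change was higher in U2OS cells at 7 of 7 genes, with a median U2OS to hTERT-RPE1 ratio of 1.75 (1.23 to 3.09). Taken singly, the interval excluded 1 at HIST1H4E only, with 2.57 (1.36 to 4.80). The 7 values share the same 4 libraries, so that their common direction is not independent evidence on the lines. For NPAT 2 of 7 genes were higher in U2OS cells, and the median ratio was 0.842. The interval excluded 1 at HIST1H4J, with 3.16 (1.01 to 11.1). That value set a region downstream of the gene in hTERT-RPE1 cells against one upstream in U2OS cells. With the upstream regions of both lines it was 1.29 (0.194 to 6.64).

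For HINFP 3 of 7 genes were higher in U2OS cells (median ratio 0.729), and each of the 7 intervals held 1. They were wide, as at HIST1H4K (0.00514 to 2.58), so that several-fold differences could not have been seen with these counts. For E2F1 4 of 6 genes were higher in U2OS cells (median ratio 1.58). The interval excluded 1 at HIST1H4A, where the value was lower in U2OS cells, 0.295 (0.0984 to 0.786). The intervals are not adjusted for the 27 comparisons.

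The H4 genes made up different shares of the enriched regions around them. From 50 kb before the first of the genes to 50 kb after the last, HINFP had 8 enriched regions in each line, of which 7 (87.5%) were at these H4 genes. NPAT had 25 enriched regions in each line, with 7 (28%) and 8 (32%) at the H4 genes in hTERT-RPE1 and U2OS cells. CASP8AP2 had 14 and 19, with 3 (21.4%) and 6 (31.6%) at the H4 genes, and E2F1 had 7 and 3, with 1 in each line. Of the NPAT regions at the H4 genes 5 of 7 overlapped an enriched HINFP region in hTERT-RPE1 cells, as did 7 of 8 in U2OS cells. Of those elsewhere in the span 1 of 18 and 1 of 17 did. For CASP8AP2 the corresponding counts were 3 of 7 and 6 of 8 at the H4 genes, and 10 of 18 and 13 of 17 elsewhere. Among the enriched NPAT regions, the overlap with HINFP was thus higher in counts at the H4 genes. The overlap with CASP8AP2 was not, with the NPAT regions assigned by summit. These regions lie in 1 library per line and are no replicates of each other, so that no test was made. The regions elsewhere were counted without naming their genes. By their summits they include the broad NPAT region over the start codon of HIST1H4A in U2OS cells, which an enriched CASP8AP2 region overlaps. The CASP8AP2 comparison in U2OS cells depends on that assignment. The span holds H4 genes outside the 10, such as H4C7 beside HIST1H4F. The counts therefore do not set H4 genes against genes of other histones only.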

How the data were processed

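CASP8AP2, NPAT, HINFP and E2F1 ChIP libraries of U2OS and hTERT-RPE1 cells (chromatin in fragments of 200 to 400 bp, per the labels) were mapped to NCBI36 (hg18, per the submitters' processing notes), and regions were called in each library. The aligner, the peak caller and the handling of duplicates and of reads with several positions are not given in the sources used here. The 4 IgG libraries were seen only through the IgG counts per region. The authors deposited, for each region, whole-number counts of ChIP and IgG sequences, not normalized. The deposited height is a signal, the reads piled up at the summit, at least 8. The deposited fold change is a ratio, (ChIP + 1) / (IgG + 1), times a constant of the library, from which the relative depth was taken, and the deposited p-value is not adjusted. All columns with values of a sample were read through the samples' own lists, and 0 were left unused.

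Members were found by summits within 1 kb of the NCBI36 positions, and the region with the most ChIP sequences was used. All 10 genes are named. Other regions were counted between 50 kb before the first and 50 kb after the last gene. Enriched regions had a fold change above 2 with a p-value under 0.00001. The paper prints the sign of the p-value limit the other way, and it was read as an upper limit. Ratios carry exact Clopper-Pearson intervals, and lines were compared by exact conditional odds ratios. Libraries without replicates allow no test, so no p-value was computed. Promoters were taken from RefSeq (GRCh38.p14) and aligned globally, and no coordinates were converted. The members, gene lists and motifs were chosen with earlier results of these data known. The code for the intervals and for assigning regions to genes was tested on simulated data, and that for overlaps between factors was not. Alternatives were other limits, windows, added counts, choices of region and region middles. The scripts ran with biopython 1.88, matplotlib 3.10.9, scipy 1.17.1, pandas 2.3.3 and numpy 2.4.6 under Python 3.11.15.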

Additional observations from a re-analysis of the deposited data

Results flagged for a closer look

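At 3 combinations of factor and gene the interval of the U2OS to hTERT-RPE1 odds ratio excluded 1, without adjustment for the 27 comparisons and with 1 library on each side. CASP8AP2 at HIST1H4E was higher in U2OS cells, at 2.566 (213 ChIP and 32 IgG sequences, against 67 and 26 in hTERT-RPE1 cells). NPAT at HIST1H4J was higher in U2OS cells, at 3.163, and came to 1.29 (0.194 to 6.64) when the regions upstream of the gene were used in both lines. E2F1 at HIST1H4A was lower in U2OS cells, at 0.2946 (58 and 20 sequences, against 78 and 7 in hTERT-RPE1 cells). The IgG count there moved more than the ChIP count, and its part in the difference was not tested.

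In U2OS cells 2 broad regions that the choice by summit left out cover the start codon of HIST1H4A. CASP8AP2 reached a fold change of 4.048 there (p-value 2.8e-25) and NPAT one of 5.519 (p-value 2.84e-44). Both meet the limits for enrichment.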

How the results depend on the processing

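The 38 results were recomputed under 14 settings, in 142 combinations. Of these, 130 stayed within the limits set for a change and 12 moved. Reversals were not tested for separately. The limits were wide for small counts. With the stricter limit of 1e-10, CASP8AP2 kept 4 of its 6 enriched genes in U2OS and 2 of 3 in hTERT-RPE1 cells. Both changes were counted as within the limits. A fold change above 5 left 1 enriched gene for CASP8AP2 in hTERT-RPE1 cells in place of 3 and 0 for E2F1 in U2OS cells in place of 1. A p-value under 1e-10 left 3 for HINFP in hTERT-RPE1 cells in place of 7 and 0 for E2F1 in U2OS cells, and one under 0.0001 gave 2 for E2F1 in U2OS cells. With 5 added to both counts the median HINFP ratio in hTERT-RPE1 cells was 4.667 in place of 10.1. With the middle of the region in place of the summit, the median distance to the start codon was 281.8 and 181.8 bp for CASP8AP2 in hTERT-RPE1 and U2OS cells, 373.2 and 273.5 bp for NPAT, and 70.5 bp for E2F1 in hTERT-RPE1 cells, in place of 86.5, 68.5, 9.5, 31 and 111 bp. Among genes enriched in at least 1 line, 0 had a higher E2F1 fold change in U2OS cells in place of 4, since HIST1H4A alone remained. Chosen after the data had been seen, adding the regions that cover HIST1H4A raised the enriched genes in U2OS cells to 7 for CASP8AP2 and 8 for NPAT.

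No paired analysis was possible because each factor has 1 library per line, and for the same reason no library was left out in turn. Library and cell line cannot be told apart. Low IgG counts limit HINFP most, with 1 to 16 IgG sequences per region. The parts of depth and of short regions in these counts were not tested. Genes without a listed region have no upper limit, since the lists start at a height of 8. The values at HIST1H4J and HIST1H4K rest on an unknown treatment of near-identical sequences.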
